A study of Drosophila melanogaster with 2 samples.

Results

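The peaks described here are binding sites of the CG1620 protein that lie just upstream of the transcription start site (TSS) of a single protein-coding gene. They came from chromatin immunoprecipitation with sequencing (ChIP-seq) on whole adult female Drosophila melanogaster. A peak was included when its summit lay within 500 bp of annotated TSSs of exactly 1 protein-coding gene and at least 1 bp upstream of the nearest of them, read along the strand of that gene. Of the 3894 peaks in the authors' optimal set on the dm6 build, 1303 met this rule, or 33.5% (exact binomial 95% interval 32.0 to 35.0%). The flies belonged to a transgenic line that stably expresses CG1620 with green fluorescent protein (eGFP) fused to its C-terminus, and bound DNA was recovered with an anti-GFP antibody. All samples formed 1 group of 2 biological replicates, which carry the numbers 2 and 3 and come from separate biosamples of that line. The age of the flies is given as unknown, and no second genotype or treatment was compared. Whole animals were used, so binding in different tissues cannot be told apart. The antibody recognises the tag rather than the native protein. The deposited lists hold no read counts, so depth is unknown. The optimal set contains peaks kept by the irreproducible discovery rate (IDR) procedure, which compares ranks between replicates.

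A promoter is the stretch of DNA around a TSS where the transcription machinery assembles, and in flies many promoters fall into recognisable classes by short sequence motifs just upstream of the start. The DNA replication-related element (DRE), TATCGATA, is bound by the factor DREF and is common at promoters of broadly active genes, and the insulator protein BEAF-32 binds clusters of the overlapping letters CGATA. The factor M1BP binds core promoter motif 1, and motif 7 is another element of broadly active fly promoters. The TATA box is typical of regulated and tissue-specific genes. Promoters shared by divergent gene pairs cannot be given to either gene, and the rule used here leaves out any summit within reach of a second protein-coding gene.

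The summit windows of 8 of the strongest peaks are shown first, followed by windows that were picked for the motifs they hold. Each window runs 50 bp either side of the summit, ends before the TSS and holds no annotated UTR. Sequences are from the RefSeq copy of the dm6 genome, and are written 5′ to 3′ on the strand of the gene. Capitals mark the 12 6-base sequences (6-mers, joined with their reverse complements) that were most over-represented at the summits, as tested further on. The windows lie at chr3L:19590573-19590673 (CG14100, minus strand), chrX:2703853-2703940 (Ugalt, minus), chrX:15867941-15868041 (Gapdh2, plus) and chrX:8464496-8464596 (Sptr, minus). Next come chrX:21367791-21367891 (bbx, plus), chr2L:297801-297879 (Pi3K21B, plus), chrX:2050239-2050339 (moody, minus) and chr3R:25258782-25258882 (CG11857, plus).
CG14100: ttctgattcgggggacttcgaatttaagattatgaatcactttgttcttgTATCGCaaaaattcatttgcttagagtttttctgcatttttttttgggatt
Ugalt: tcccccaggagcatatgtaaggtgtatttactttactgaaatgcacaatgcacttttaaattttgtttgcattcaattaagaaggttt
Gapdh2: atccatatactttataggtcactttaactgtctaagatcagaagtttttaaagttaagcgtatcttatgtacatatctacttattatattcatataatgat
Sptr: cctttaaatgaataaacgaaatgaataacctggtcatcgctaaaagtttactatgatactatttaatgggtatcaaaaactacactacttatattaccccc
bbx: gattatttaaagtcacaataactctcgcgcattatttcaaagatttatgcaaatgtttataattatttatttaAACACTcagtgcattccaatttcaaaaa
Pi3K21B: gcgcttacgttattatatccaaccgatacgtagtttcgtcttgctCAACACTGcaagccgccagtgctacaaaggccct
moody: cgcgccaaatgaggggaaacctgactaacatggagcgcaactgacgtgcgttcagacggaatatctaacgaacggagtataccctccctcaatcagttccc
CG11857: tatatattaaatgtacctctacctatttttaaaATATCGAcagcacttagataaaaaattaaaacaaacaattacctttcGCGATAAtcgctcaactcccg

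The windows at CG14100, Ugalt, Gapdh2, Sptr, bbx and CG11857 were rich in A and T, with G+C contents of 31.7, 33.0, 24.8, 30.7, 24.8 and 29.7%. Those at Pi3K21B and moody held 49.4 and 52.5%. None of the 8 windows held the DRE core, ATCGAT, and 4 of them held none of the 12 leading 6-mers. Among all upstream single-gene peaks, 16.3% of summits held the DRE core and 52.4% held at least 1 of the 12. Of the 12 strongest, 4 held at least 1 of the leading 6-mers (9.92 to 65.1%) and none held the DRE core (upper interval limit 26.5%). Both intervals include the shares over all upstream single-gene peaks. Among windows without UTR sequence that can be shown, the next are those of the strongest peaks with the complete DRE (RpS10b, chrX:19597949-19598030, plus strand), with motif 1 beside a DRE (Rnp4F, chrX:5322697-5322792, minus) and with motif 7 (RpS5a, chrX:17148288-17148388, minus).
RpS10b: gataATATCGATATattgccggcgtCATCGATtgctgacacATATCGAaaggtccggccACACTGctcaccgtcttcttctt
Rnp4F: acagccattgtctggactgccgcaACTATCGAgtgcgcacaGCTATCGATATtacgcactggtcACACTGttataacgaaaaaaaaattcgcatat
RpS5a: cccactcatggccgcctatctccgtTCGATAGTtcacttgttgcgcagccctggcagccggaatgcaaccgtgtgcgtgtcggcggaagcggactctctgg

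RpS10b and RpS5a encode proteins of the small ribosomal subunit, and their peaks had signals of 471 and 436. The RpS10b window held 5 of the 12 leading 6-mers, and that of Rnp4F, which encodes an RNA-binding protein, held 7. Signal is the authors' score of a peak against the control, on an arbitrary scale. It ranks peaks within a list and is not a measure of bound molecules.

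The summits gathered close to the TSS. The median distance upstream was 92 bp, with an interquartile range of 44.5 to 189 bp. Of all summits, 10% lay within 22 bp of the TSS at the near end, and 10% lay beyond 305.8 bp at the far end. Counted in steps of 25 bp, the fullest step was 26 to 50 bp upstream with 220 peaks, followed by 51 to 75 bp with 190, and the last step, 476 to 500 bp, held 9. Among all 1665 promoter peaks of a single protein-coding gene, 78.3% lay upstream (76.2 to 80.2%), and the other 362 lay at or downstream of the TSS. These 362 peaks serve as the comparison below. At the inner limit of the rule, the summits at Mnn1, the fly menin gene, and Chc, the clathrin heavy chain gene, lay 1 bp upstream with signals of 165 and 133. Just outside it, those at RpL37A and hdly lay on the TSS itself, with signals of 239 and 148. At the outer limit, sick (499 bp, signal 86.5) and CG5973 (498 bp, 349) were included, while CG3961 (502 bp, 120) and CG42571 (506 bp, 87.2) were not.

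**Figure D1:**
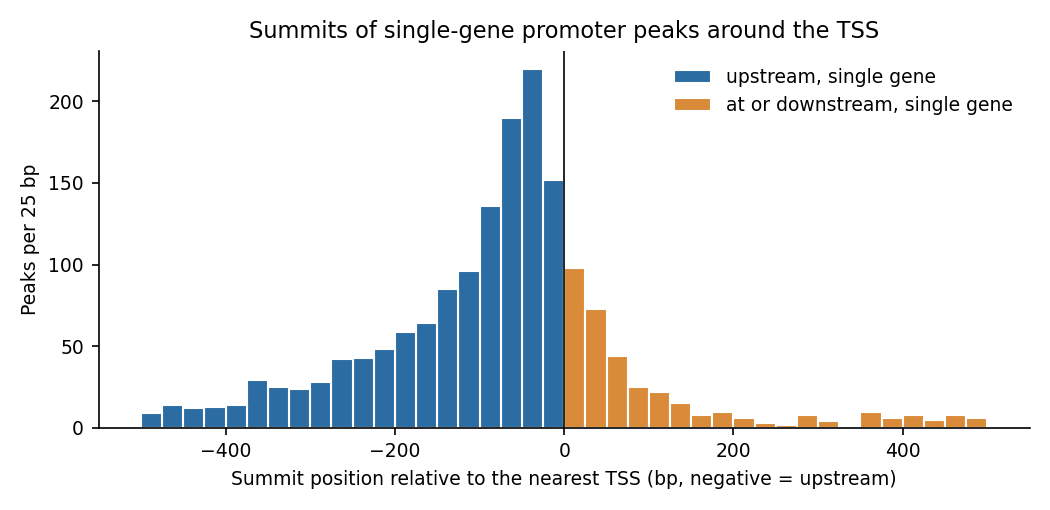
Number of single-gene promoter peaks per 25 bp (vertical axis) by the position of the summit relative to the nearest TSS in bp (horizontal axis, negative upstream). The 1303 upstream peaks are blue and the 362 peaks at or downstream of the TSS are orange. The fullest upstream step, 26 to 50 bp, holds 220 peaks.

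A candidate peak of each replicate was matched to a peak when the overlap covered at least 50% of either. Of the 1303 peaks, 1264 had a candidate in both lists, 3 lacked one in replicate 2 and 36 lacked one in replicate 3. Among the 1264, the summit lay upstream of the same TSS in both replicates for 1176, or 93.0% (91.5 to 94.4%), and downstream in both for 3. The share was 97.0% in replicate 2 and 95.8% in replicate 3. The replicate summits lay a median of 26 bp apart, 10% of them more than 99 bp apart, and their median positions were -92 and -100 bp. The pooled list was made from these 2 replicates, so the agreement is not independent of the rule. The side was less certain near the TSS: upstream in both replicates were 79.0% of the peaks at 1 to 50 bp, 97.5% at 51 to 100 bp, 98.3% between 100 and 200 bp and all 291 beyond 200 bp. Of the downstream peaks, 77.9% lay downstream in both replicates (258 of 331). Their pooled summits lay closer to the TSS, at a median of 57 bp, so this share and the 93.0% are not at matched distances.

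Upstream peaks had higher median signals than downstream ones. In the pooled list the median signal was 116 (interquartile range 87.4 to 176) upstream and 98.6 (79.8 to 136) downstream, a ratio of 1.18. In replicate 2 the medians were 88.3 and 80.4, a ratio of 1.10, and in replicate 3 they were 32.4 and 22.0, a ratio of 1.48. The direction was the same in both replicates and the interquartile ranges overlapped in each list. With 1 group there is no test of this difference over samples. Promoter peaks within reach of 2 or more protein-coding genes, 1218 in number, had the highest median, 137, and the ratio of upstream single-gene peaks to them was 0.851. The median signal changed little with distance from the TSS, at 113, 117, 122 and 114.5 in the bands of 1 to 50, 51 to 100, over 100 to 200 and over 200 to 500 bp.

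Signals of the 2 replicates rose together across the 1264 peaks, with a Spearman's rho of 0.706. The peaks share their libraries and control, and the value is a description. Over the downstream peaks rho was 0.528 (331 peaks) and over the multi-gene promoter peaks 0.755 (1180 peaks). Replicate 2 gave the larger score, by a median factor of 2.81 for upstream and 3.47 for downstream peaks. The scores were not scaled between the lists. Among the upstream peaks, 96 overlapped another of them, 28 shared a replicate 2 candidate with another and 42 shared a replicate 3 candidate, so these values are not separate measurements.

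**Figure D2:**
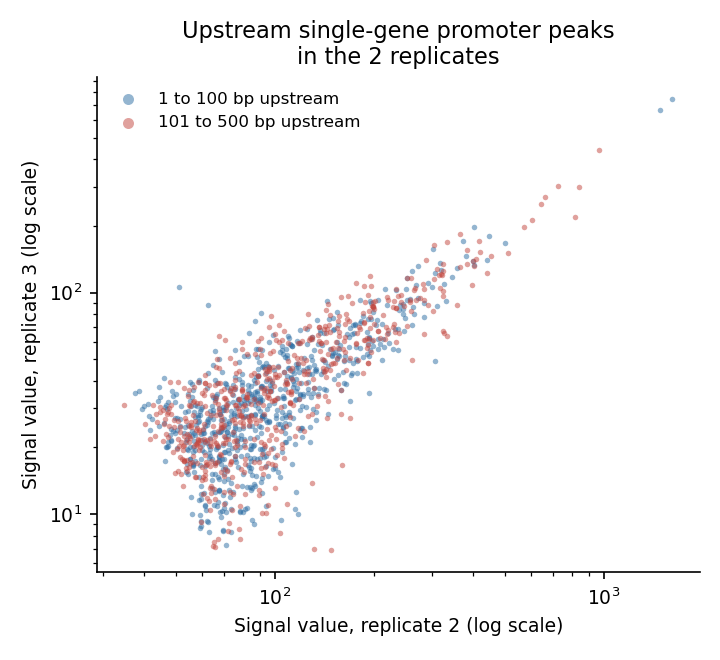
Signal values of the upstream single-gene promoter peaks in replicate 2 (horizontal axis) and replicate 3 (vertical axis), both on log scales and in the authors' arbitrary units. Each point is 1 of 1264 peaks, blue for summits 1 to 100 bp and red for summits over 100 bp upstream. Both distance classes spread over the whole range, with a Spearman's rho of 0.706 overall.

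The peaks with the highest pooled signal were strong in each replicate, as the pooled list was made from both. The peak of CG14100 had signals of 1616 in replicate 2 and 745 in replicate 3, and ranked 1 in both. That of Ugalt, the UDP-galactose transporter gene, had 1486 and 670. Its summits lay 38 and 39 bp upstream in the 2 replicates, close to the pooled position of 38 bp. The peak of mRpL41, a protein of the large mitochondrial ribosomal subunit, had 965 and 440, and that of CG1888 had 842 and 299. The Gapdh2 peak, at a gene for the glycolytic enzyme glyceraldehyde-3-phosphate dehydrogenase, stood 154 bp upstream with signals of 819 and 220, rank 9 in replicate 2 and 28 in replicate 3. The list went on with eIF6, a factor of large ribosomal subunit maturation (724 and 301), and Sptr, the gene of the pterin enzyme sepiapterin reductase (664 and 270). The HMG-box genes bbx (645 and 252) and Sox14 (605 and 212) followed, with summits 198 and 254 bp upstream. Last of the 12 were Reg-5 (573 and 197), Pi3K21B, the adaptor subunit of phosphoinositide 3-kinase (502 and 168), and moody, a receptor gene of the blood-brain barrier (512 and 151). All 12 had summits upstream in both replicates. In the 51 to 100 bp band the peak of Alg3, a mannosyltransferase gene of N-glycan assembly, came second with 448 and 180. On chromosome 3R the strongest peak was that of CG11857 (404 and 198), and on chromosome 4 that of the ribosomal protein gene RpS3A (219 and 88.1).

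A few peaks stood apart between replicates. The 5 strongest without a replicate 3 candidate were at Efa6, Ars2, Orai, whd and CG43736, with replicate 2 signals of 97.1, 95.1, 103, 116 and 80.9. Orai encodes the store-operated calcium channel and whd a carnitine palmitoyltransferase. Among the strongest 326 peaks, the ratio of ranks between replicates was largest at Dph4, a gene of diphthamide synthesis, with rank 132 in replicate 2 and 1000 in replicate 3. Then came the outer peak of Rme-8, which encodes an endosomal J-domain protein (96 and 622). Its replicate 2 value belongs to a candidate that it shares with the inner peak of the same gene. The forkhead gene fkh (105 and 587), REPTOR, a transcription factor gene of the TOR pathway (111 and 553), and CG7737 (211 and 973) followed. All 5 ranked higher in replicate 2.

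The 1303 peaks belonged to 1192 genes. A single peak marked 1092 genes, 91 genes had 2, 8 had 3 and 1 had 5. The gene with 5 was Rtnl1, the reticulon gene that shapes tubular endoplasmic reticulum, which has several alternative promoters on 2L. Its peaks had signals of 299, 172, 96.4, 189 and 148 and lay 263, 281, 224, 271 and 85 bp upstream of their TSSs. The phosphatase gene Ptpmeg2 had peaks at 2 promoters with signals of 574 and 359, and larp, an RNA-binding protein gene, had 3 peaks with signals of 304, 248 and 199. The 2 peaks of gro, which encodes the corepressor Groucho, had 248 and 246. Genes with an upstream peak had a single TSS position in 49.7% of cases (46.8 to 52.5%), against 73.5% of all protein-coding genes. A gene could meet the rule at any of its TSSs, so genes with more positions had more chances, and the difference was not tested.

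Most summits lay outside genes. Intergenic sequence held 814, or 62.5% (59.8 to 65.1%), introns and non-coding exons 379, 5′ UTRs 80, 3′ UTRs 28 and coding sequence 2. The nearest TSS was the outermost of its gene for 942 peaks, while the other 361 lay within the body of their own gene, upstream of an inner start. Another 128 lay only inside a different gene, and 88 had a TSS of a non-coding gene within 500 bp. The next protein-coding TSS on the upstream side ran in the same direction for 739 peaks, at a median of 3631 bp. It ran in the opposite direction for 563, at a median of 1849 bp, and within 1000 bp for 162 of these.

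The X chromosome held such promoters more often than the large autosome arms. A peak stood at 274 of 2196 protein-coding genes on X, or 12.5% (11.1 to 13.9%), and at 904 of 11669 on 2L, 2R, 3L and 3R, or 7.75% (7.27 to 8.25%). Chromosome 4 had 14 of 80, or 17.5% (9.91 to 27.6%). The median signal was close on the 5 arms, from 114 on 3R to 118 on 2L and 2R. On chromosome 4 it was 101.2 over 15 peaks. Of the upstream peaks 23.0% lay on X, close to the 21.5% of downstream single-gene peaks, while multi-gene promoter peaks had 16.3%. The X share was thus not particular to upstream peaks among single-gene promoter peaks. No test was run on these shares.

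DRE-like sequence was the most enriched at the summits. All 2080 6-mers were compared between the window 50 bp either side of each summit and equally long flanks that began 150 bp from it. Each peak was its own control in McNemar's exact test, and p-values were adjusted by Benjamini-Hochberg with a threshold of 0.05. At the summits 80 6-mers, or 3.85%, were more frequent, and 12, or 0.577%, were less frequent. TATCGA was present at 19.3% of summits and 5.07% of flanks (exact adjusted p = 1.31e-25). The DRE core ATCGAT was present at 16.3 and 3.76% (exact adjusted p = 1.11e-23), and CGATAG at 16.0 and 4.30%. A second group shared the letters ACACTG, present at 15.1 and 5.07% (exact adjusted p = 3.00e-14), with AACACT at 14.1 and 5.99% and CAACAC at 13.7 and 5.76%. Of the other 6 leading 6-mers, ATATCG was at 11.2% of summits, ACTATC at 10.5%, CGATAA at 10.4%, GCGATA at 9.75%, CATCGA at 8.90% and GATAGC at 7.98%. At least 1 of the 12 was present at 52.4% of summits and 31.8% of flanks. Overlapping 6-mers are not separate motifs, and 10 of the 80 share at least 5 letters in a row with the DRE. The less frequent 6-mers were led by AATAAA (19.6 against 27.6%, exact adjusted p = 2.30e-04), CTCGTC and AACAAA. Windows held a median of 40.6% G+C and flanks 39.6%. The tests treat peaks as independent and cover the spread over peaks, not between flies. With a flank on the upstream side alone 274 6-mers were called, and the strongest 660 peaks gave 40. A window of 25 bp either side gave 56. The DRE core remained called in the upstream-flank and strongest-peak versions, with exact adjusted p-values of 1.33e-20 and 1.90e-07.

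The DRE core was also more frequent at upstream than at downstream summits. A logistic model of each 6-mer on the side of the TSS and the G+C content of the window called 14 6-mers, or 0.673%, higher at upstream summits and 11, or 0.529%, lower. The DRE core was present at 16.3% of upstream and 6.63% of downstream summits, an odds ratio of 3.09 (95% interval 1.98 to 4.83, n = 1303 and n = 362 peaks, adjusted p = 1.71e-05). For CGATAG the odds ratio was 3.05 (1.98 to 4.70) and for TATCGA 2.78 (1.88 to 4.13). GGTATA was present at 5.45 and 0.552% of summits, CAGCCC at 6.37 and 1.93%, and ACACTG at 15.1 and 8.56%. Of the 12 6-mers that led against flanks, 7 did not pass in this comparison, AACACT (adjusted p = 0.129, n = 1303 and n = 362 peaks) among them. GGTATA had not passed against flanks (exact adjusted p = 0.101). Lower at upstream summits were CGCGAC (1.84 against 8.56%, n = 1303 and n = 362 peaks, adjusted p = 3.54e-04), ACACAA (7.29 against 14.1%) and AAACAA (15.6 against 22.7%). Downstream windows lay largely in transcribed sequence and held a median of 46.5% G+C. The median summit lay 92 bp upstream in one class and 57 bp downstream in the other, so the windows covered different stretches around the TSS. A difference between the promoters cannot be told apart from this difference in position. The share with the core in the 100 bp before the TSS was not computed for downstream peaks. Without the G+C term Fisher's exact test called 82 6-mers. Without replicate 2, the summits of replicate 3 gave 15 calls in place of 25, the strongest IDR peaks gave 15, and a window of 25 bp either side left 1. Restricted to summits within 100 bp of the TSS on either side, the DRE core was present at 25.1 and 8.33% (logistic model, n = 698 and n = 240 peaks, adjusted p = 3.56e-06). That restriction still left the summits of the 2 classes on opposite sides of the TSS.

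Within the upstream peaks, DRE-like sequence was more frequent at the summits near the TSS. In a comparison chosen after the data were seen, the 698 summits at 1 to 100 bp were set against the 605 beyond 100 bp in the same model. It called 28 6-mers, or 1.35%, higher near the TSS and 4, or 0.192%, lower. TATCGA was present at 29.2% of near and 7.93% of far summits, an odds ratio of 4.56 (3.19 to 6.53, n = 698 and n = 605 peaks, adjusted p = 4.75e-16). The DRE core was present at 25.1 and 6.12%, an odds ratio of 4.92 (3.31 to 7.31), and ACACTG at 21.8 and 7.44%. Of the 4 lower 6-mers, AAGGGG was at 2.44 and 5.45%, ACAGGA at 0.716 and 2.81%, GCCCCC at 1.58 and 2.64%, and GAGAGA at 3.58 and 6.28%. Compared with their own flanks, near summits gave 171 called 6-mers and far summits 12. At far summits the DRE core did not pass, at 6.12% against 4.46% in the flanks (exact adjusted p = 0.721). Near windows held 44.6% G+C and far windows 35.6%, and without the G+C term 310 6-mers were called. Among the strongest IDR peaks 13 were called, with the DRE core at 21.9 and 6.71% (n = 347 and n = 313 peaks, adjusted p = 0.00354).

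Matches to the DRE core were most frequent from the summits to about 50 bp towards the gene. In the 212 peaks with a match in the summit window, it lay at a median of -46 bp from the TSS, with an interquartile range of -71.75 to -28.5 bp, and a median of 21.5 bp from the summit on either side, with a signed median of 1.5 bp towards the gene. These distances use only the match nearest the summit in a symmetric window, which by itself keeps the signed median small. Around all upstream summits the density of the core was nearly level from 10 bp on the far side (4.30% of peaks per 20 bp) to 50 bp towards the gene (4.76%). It was 3.38% at 30 bp on the far side and 4.53% at 30 bp towards the gene. Around downstream summits the highest value, 3.31%, stood 90 bp on the upstream side. In the 100 bp before the TSS, the core was present at 29.0, 25.8, 14.5 and 8.97% of the peaks in the 4 distance bands from near to far. All 19253 protein-coding TSS positions gave 12.7% in the same stretch (12.3 to 13.2%). Near peaks as a whole gave 27.5% (24.2 to 31.0%) and far peaks 11.7% (9.28 to 14.6%). The far value therefore overlapped that of all promoters.

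**Figure D3:**
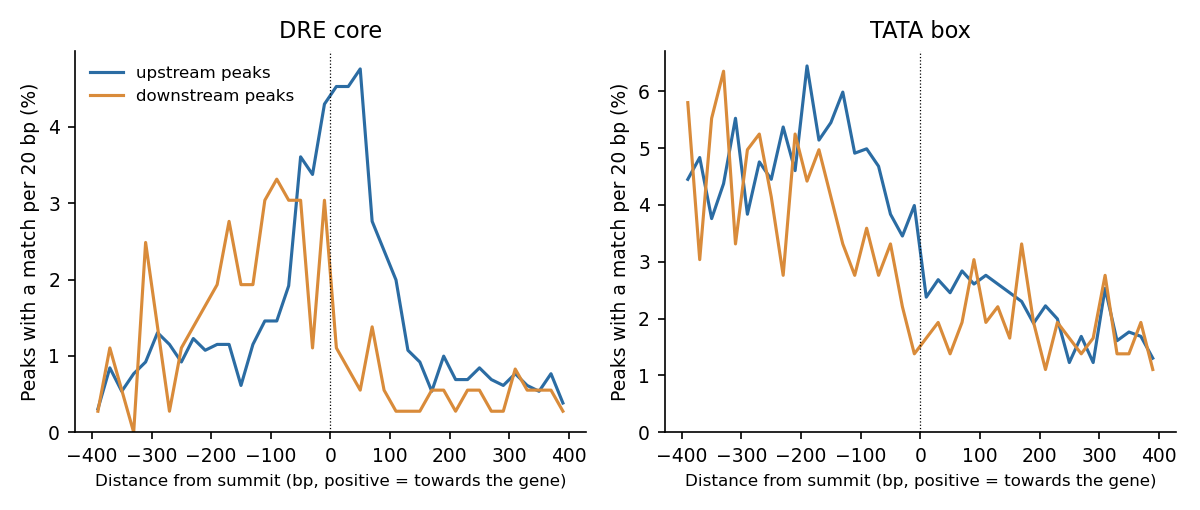
Share of peaks with a match per 20 bp (vertical axis, percent) by distance from the summit in bp (horizontal axis, positive towards the gene), for the DRE core (left) and the TATA box (right). Blue lines are the 1303 upstream and orange lines the 362 downstream single-gene peaks. The DRE core is at 4.30 to 4.76% from 10 bp on the far side to 50 bp on the gene side of upstream summits, and reaches 3.31% on the upstream side of downstream summits.

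Motif 7 and motif 1 were also more frequent at the near summits. A total of 14 motifs were searched on both strands. The DRE core was about as frequent at multi-gene promoter summits as at upstream single-gene ones, at 15.6 and 16.3%, as was TATCGA, at 20.5 and 19.3%; these differences were not tested. Motif 7 was present at 7.67% of upstream summits, 1.84% of flanks, 3.04% of downstream summits and 10.02% of multi-gene promoter summits. The motif 1 core, GGTCACAC, was present at 4.14% of summits (3.13 to 5.37%) and 1.15% of flanks (0.646 to 1.89%), and the complete DRE at 5.99 and 1.69%. Over near and far summits, motif 7 was present at 11.3% (9.06 to 13.9%) and 3.47% (2.16 to 5.26%) and the motif 1 core at 6.88% (5.11 to 9.01%) and 0.992% (0.365 to 2.15%), with intervals that did not overlap and no test of their own. The DRE core lies within the DRE, so both count the same sites. In windows of the same length centred 92 bp upstream of all protein-coding TSS positions, motif 7 was present in 2.35%, the motif 1 core in 1.39%, the DRE in 2.67% and its core in 8.38%. In the 4 distance bands from near to far, motif 7 was present at 11.3, 11.3, 4.61 and 2.33% of summits and the motif 1 core at 8.60, 4.91, 0.658 and 1.33%.

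The TATA box letters, TATAAA, ran the other way, at 8.06, 10.4, 20.1 and 17.6% of summits in the same bands. They were present at 9.17% of near and 18.8% of far windows. With the G+C content in the model this difference did not pass (odds ratio 0.884, n = 698 and n = 605 peaks, adjusted p = 0.848). Over all upstream peaks with a match in the window, the median position of the letters was -140.5 bp from the TSS. Over all upstream summits the share was 13.7%, against 16.4% of flanks and 16.2% of all promoters.

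**Figure D4:**
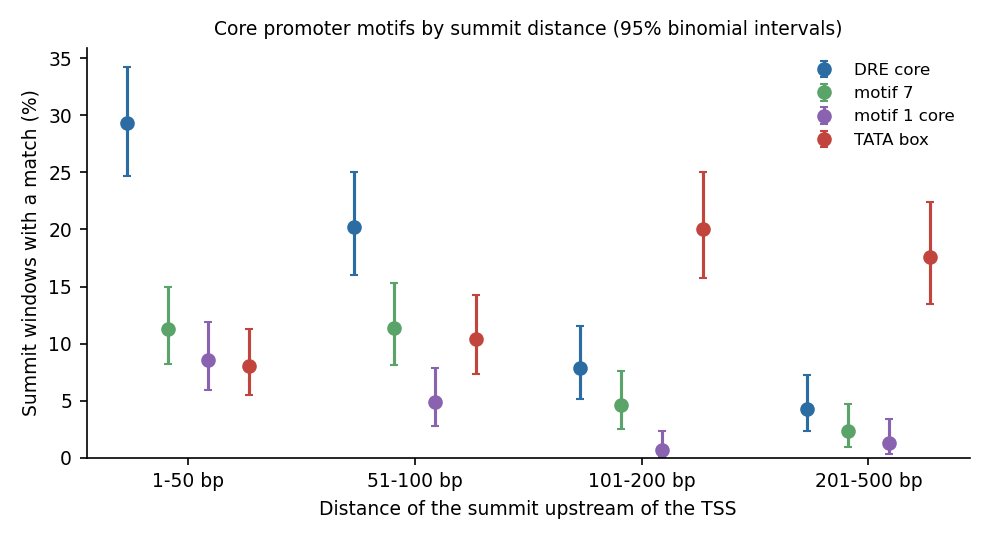
Share of summit windows with a match (vertical axis, percent) for 4 motifs in bands of summit distance upstream of the TSS (horizontal axis). Points are shares and bars exact binomial 95% intervals, over 372, 326, 304 and 301 peaks from left to right. The DRE core falls from 29.3 to 4.32%, while the TATA box letters are at 8.06% in the nearest and 17.6% in the farthest band.

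Of the remaining motifs, the E-box CAGCTG was present at 7.83% of summits and 4.22% of flanks (exact McNemar test, adjusted p = 0.00676), at 5.94% of all promoters and at 8.56% of downstream summits (logistic model, adjusted p = 0.741). The GAGA element, GAGAGA, was present at 4.84% of summits, 6.37% of flanks and 7.25% of all promoters. Within the upstream peaks it was less frequent at near than at far summits (3.58 against 6.28%, logistic model, n = 698 and n = 605 peaks, adjusted p = 0.0316). In the 100 bp before the TSS, GAGAGA was present at 3.87% of near peaks (2.56 to 5.58%) and 14.5% of far peaks (11.8 to 17.6%). All protein-coding TSS positions gave 6.31% in that stretch, and these shares were not tested. The GATA site TGATAA was present at 7.60% of summits and 9.67% of promoters, and the initiator TCAGTN at 18.2 and 16.5%. The cyclic AMP response element TGACGT (2.15 and 2.36%), the E-box CACGTG (1.53 and 1.08%), AACCCCC (0.614 and 0.712%), motif 6 (0.384 and 0.789%) and the Zelda site CAGGTAG (0.153 and 0.665%) were rarer. A match shows only that the letters are there.

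The share of summits with the DRE core was lowest among the strongest peaks. In 4 groups of 325 or 326 peaks from strongest to weakest, it was present at 11.96, 16.9, 18.5 and 17.8% of summits. The intervals of the strongest group (8.65 to 16.0%) and the weakest (13.8 to 22.4%) overlapped. In the same order, the summits lay at medians of 112.5, 79, 82 and 94.5 bp upstream, with 38.6, 42.6, 41.6 and 41.6% G+C. Signal was not separated from distance or G+C content, and the cause of the lower share was not tested. The motif 1 core was present at 1.84, 3.99, 5.85 and 4.91%. Peaks with the DRE core had a median signal of 106, against 116 for all upstream peaks, and 81.3 against 88.3 in replicate 2 and 28.0 against 32.4 in replicate 3. At the outermost TSS of a gene 19.3% of summits held the core (16.8 to 22.0%), and at inner starts 8.31% (5.68 to 11.7%). Summits at inner starts lay farther out, at a median of 136 against 80 bp.

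Over all 13945 protein-coding genes, 1192, or 8.55%, had an upstream single-gene peak. Of 93 genes with the symbol of a cytoplasmic ribosomal protein, paralogues with "-like" names included, 32 had one, or 34.4% (24.9 to 45.0%). Their peaks stood a median of 38 bp upstream with a median signal of 186. Among the strongest were RpS28b, with signals of 402 in replicate 2 and 133 in replicate 3, and RpL24, with 382 and 146. Of 53 translation factor genes 13 had one, or 24.5% (13.8 to 38.3%), with a median signal of 202. After eIF6 came eEF1gamma, a subunit of the elongation complex, with 263 and 86.2. Aminoacyl-tRNA synthetase genes, which charge tRNAs, had 3 of 35, or 8.57%, at beta-PheRS (132 and 47.2), PheRS-m (123 and 50.4) and AlaRS. Promoter peaks of any kind stood at 76 of the 93 ribosomal protein genes and 27 of the 53 translation factor genes. Over all 13945 protein-coding genes they stood at 3662, so the high shares of these 2 lists were not particular to upstream peaks. The lists were chosen with earlier results of these data known, and no test was run on them.

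Of the genes of mitochondrial ribosomal proteins, 4 of 73 had such a peak, or 5.48% (1.51 to 13.4%), an interval that holds the value over all genes. A promoter peak of any kind stood at 40 of the 73, against 3662 of all 13945 protein-coding genes. The 4 were mRpL41, mRpL9 (78.8 and 31.7), mRpL4 and mRpL10. These 4 of 40 compare with 32 of 76, or 42.1%, among cytoplasmic ribosomal proteins and 32.6% over all protein-coding genes with a promoter peak. The respiratory chain and ATP synthase list had 8 of 87, or 9.20%, led by ND-B22 (213 and 61.8) and ATPsynB (135 and 35.0), subunits of complex I and of ATP synthase.

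The remaining lists held few members each. For every list named next, from the vacuolar ATPase to Mediator, the exact 95% interval of the share held the 8.55% over all protein-coding genes. The highest lower limit among these lists was 6.98%, for the vacuolar ATPase (interval 6.98 to 35.5%). The vacuolar ATPase, the proton pump of acidic organelles, had 6 of 33 genes, led by Vha68-2 (137 and 70.1) and VhaM9.7-c (151 and 40.8). Heat shock proteins and chaperones had 5 of 34, led by Hsp83 (218 and 69.7) and Hsp27 (186 and 78.3). Rab GTPases, which direct vesicle traffic, had 5 of 36, led by Rab5 (209 and 62.2) and Rab35 (126 and 44.4). The proteasome had 5 of 48, led by Rpn11 (143 and 41.7) and Rpt1 (110 and 28.1). Cyclins and cell cycle kinases had 4 of 29, led by polo (129 and 51.7) and CycG (121 and 30.6). The replication licensing list had 3 of 15, led by geminin (110 and 45.5) and Orc1 (121 and 24.6). Nuclear pore genes had 2 of 25, Nup358 (78.3 and 20.02) and Nup44A (58.0 and 21.0), and Mediator genes had 2 of 29, MED4 (78.0 and 24.2) and MED21 (37.5 and 35.3).

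Of 28 neuronal genes 2 had a peak, or 7.14% (0.877 to 23.5%): elav, which encodes a neuronal RNA-binding protein (402 and 132), and Syx1A, a syntaxin of synaptic vesicle release (83.5 and 16.4). The Syx1A summit lay 13 bp upstream in replicate 2 but 78 bp downstream in replicate 3, and its pooled summit lay inside eIF4EHP. That of elav lay inside arg, with a TSS of the non-coding gene lncRNA:enrr within 500 bp. Of 26 homeotic and segmentation genes only bcd, the anterior determinant deposited in the egg, had one (77.6 and 33.2), a share of 3.85% (0.0973 to 19.6%). The intervals of both lists held the value over all genes. None of 179 chemosensory receptor genes had one, with an upper interval limit of 2.04%, and none of 117 cuticle protein genes, with a limit of 3.10%. Promoter peaks of any kind were also rare in these lists. They stood at 2 chemosensory receptor, 1 cuticle protein, 2 neuronal and 1 homeotic or segmentation gene, against 3662 of all 13945 protein-coding genes.

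**Figure D5:**
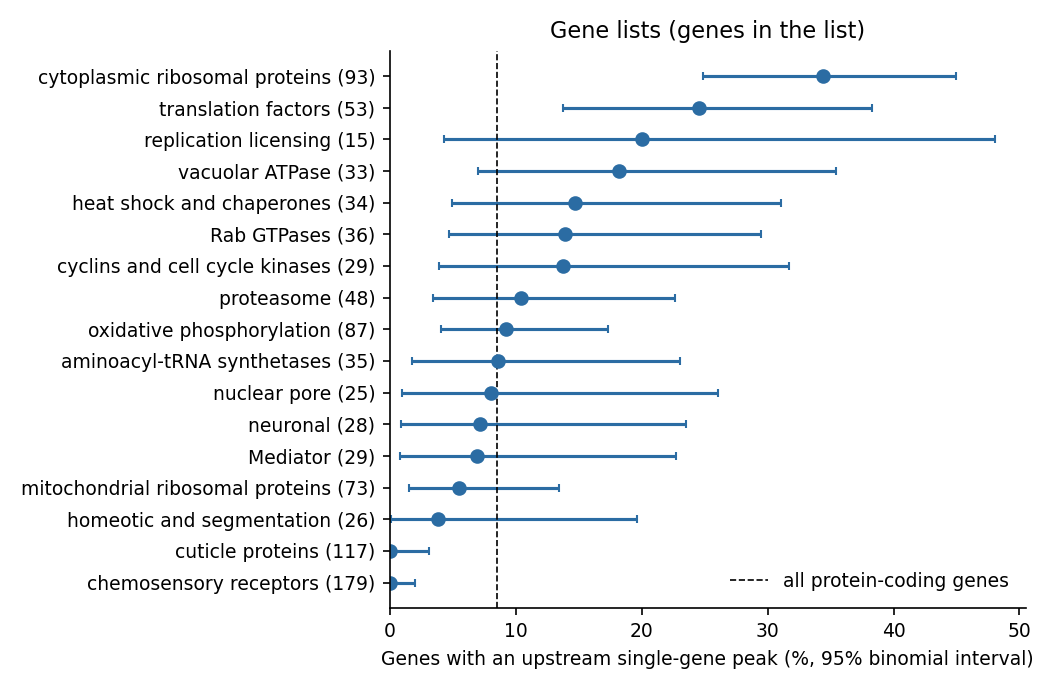
Share of the genes in each list that have an upstream single-gene promoter peak (horizontal axis, percent), with exact binomial 95% intervals. The number of genes stands after each list name, and the dashed line marks the 8.55% of all protein-coding genes. Cytoplasmic ribosomal proteins (34.4%) and translation factors (24.5%) have intervals above the line, and cuticle protein and chemosensory receptor genes have intervals below it.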

How the data were processed

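ChIP-seq peaks of eGFP-tagged CG1620 came from 2 replicates of adult female flies, with chromatin sheared by sonication to 200 to 800 bp, per the labels. The authors deposited, per the file headers and accompanying text files, candidate peak lists for each replicate and for both pooled, and an IDR-thresholded optimal set. Each peak has a signal value, deposited as a score against a control and not scaled between lists. The aligner, peak caller and IDR threshold were not given in the sources used here. Read counts are not in the lists, so the precision of single signal values is unknown. Lists on dm3 were not used here.

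Coordinates are dm6, 1-based. TSSs came from Ensembl release 115 (13945 protein-coding genes) and sequence from RefSeq release 6, of the same build. Replicate candidates had to overlap by 50% of either peak, and the strongest was taken. Summit windows of 50 bp either side were compared for 2080 6-mers by an exact McNemar test (flanks from 150 bp) or a logistic model with G+C content (likelihood-ratio test), both two-sided with Benjamini-Hochberg adjustment at 0.05. Shares have exact (Clopper-Pearson) 95% intervals, which cover counting error only. Both procedures were tested on simulated data. Python 3.11.15, numpy 2.4.6, pandas 2.3.3 and SciPy 1.17.1 were used.

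The members, gene lists and motifs were chosen with earlier results of these data known. Named genes were the 12 strongest, the strongest per distance band, arm and list, the 5 strongest lacking a candidate, the 5 with the largest ratio of ranks between replicates, the 5 genes with several strong peaks, and those at the limits. 1 of these genes is not reported here. The gene with most peaks and the comparison of near with far summits were added after seeing the data. Alternatives changed the promoter window, the summit window, the peak set, the replicate and the flanks.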

Additional observations from a re-analysis of the deposited data

How the results depend on the processing

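With the summits or signals of a single replicate, the number of upstream single-gene peaks was 1266 to 1278, their median distance 92.5 to 98 bp, and the ratio of median signals to downstream peaks 1.10 to 1.48. The called 6-mers then numbered 68 to 88 against flanks, 15 to 22 against downstream summits and 27 to 39 between near and far summits. The DRE core remained called in all 3 comparisons for each replicate, at adjusted p-values up to 0.00216 (logistic models and exact McNemar test). The median distance became 72 bp with a promoter window of 250 bp, 115 bp with 1000 bp, and 106 bp with a least distance of 25 bp, since the limits of the rule moved. With that least distance, 89.6% of summits kept it in both replicates, and among the stronger 1947 IDR peaks the share upstream in both was 96.04%. That stronger set gave 660 peaks, and 40, 15 and 13 called 6-mers in the 3 comparisons. Against flanks, a window of 25 bp either side gave 56 calls, a flank on the upstream side 274, summits within 100 bp of the TSS 171, and farther summits 12. Lengthening the flanks from 91 to 95 6-mer positions, nearer to the 96 of a window, gave 75. Against downstream summits, the window of 25 bp either side gave 1 call and the test without G+C 82. Without G+C, near against far summits gave 310. Where not set by the limits or by fewer peaks, the cause was not tested. Restricting the annotation to protein-coding transcripts left the number of peaks, the median distance and the signal ratio as they were, since 0 of the transcripts of protein-coding genes were of another type. Of the 46 alternatives, 27 stayed within the spread or within 1.5 times the count. No paired analysis was possible because there was 1 group. Single signal values have no error of their own, as the lists hold no read counts.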
